A study of Mus musculus with 6 samples.

Results

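The genes described here are 10 heat shock chaperones, *Hsph1*, *Hspa1a*, *Hspa1b*, *Hspa8*, *Hsp90aa1*, *Hsp90ab1*, *Dnajb1*, *Dnaja1*, *Hspb1* and *Hspd1*, out of 23284 genes listed for each sample. They were found by their symbols, and all 10 were listed. The group was chosen by its FPKM difference between day 10 and day 14, in which *Hsph1* stood out, and the day values of its members are therefore given as a description, with no p-value for a single gene or for the group.

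Heat shock chaperones bind unfolded or partly folded proteins and help them to fold or to be degraded. Hsp70 proteins work in cycles of ATP hydrolysis that Hsp40 (J-domain) proteins start and Hsp110 proteins such as that of *Hsph1* help to reset by exchanging the nucleotide. Hsp90 acts later on kinases, steroid receptors and other client proteins, small heat shock proteins hold aggregating proteins, and Hsp60 folds proteins inside mitochondria. Part of the family is present in every cell, and another part is switched on by heat shock factor 1 (HSF1) when unfolded proteins build up, also during tissue dissociation.

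RNA-seq was performed on ECFP+ osteoblasts (OBs) sorted from ectopic bone of *Col2.3*-ECFP mice, in which a type I collagen promoter drives the cyan fluorescent protein. Collagen sponges with BMP-2 were implanted under the skin of male mice aged 12 to 16 weeks, and bone was taken on day 10 (n = 3) or day 14 (n = 3). Neither group had another treatment, and all samples carried the same transgene and the same BMP-2 implant. Cells were freed with 0.25% trypsin for 15 min and 0.2% collagenase II for 40 min, and the collagenase step was done 1 time on day 10 and 2 times on day 14. The day and the number of digestions cannot be told apart in any result below. CD45+ and dead cells were gated out. The titles name the samples biological replicates 1 to 3 of each day, while free-text descriptions place replicates 1, 2 and 3 of day 14 on day 14, day 15 and day 16. How many mice gave each sample is not given in the sources used here, so that the spread is that between these samples.

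The estimated depth was 4900000 to 7790000 mapped reads per sample on day 10 and 4560000 to 7070000 on day 14. *Col1a1*, the gene of the main bone collagen chain, was at 14150 to 34160 FPKM, and *Ptprc*, which encodes CD45, was at 0.134 to 2.99 FPKM. Replicate 2 of day 14 stood apart from the other samples of its day. Its summed level of 10 chondrocyte markers was 1093 FPKM, against 112.2 FPKM in replicate 1, 63.1 FPKM in replicate 3 and 419.9 to 852.4 FPKM on day 10. Its summed level of 9 myeloid markers was 20.16 FPKM, against 261.8 and 614.8 FPKM in the other day 14 samples and 36.14 to 160.7 FPKM on day 10. In sorted bulk RNA, fewer cells of a type and less RNA per cell cannot be told apart. Values with and without this sample are given for the chaperones.

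The sequence that HSF1 binds, the heat shock element, is a row of alternating units GAA and TTC spaced by any 2 bases. Its shortest forms, GAANNTTC and TTCNNGAA, each read the same on both strands. They were searched in the 250 bases before each RefSeq transcript start of build GRCm38.p6, the build that mm10 is based on, and 7 of the 10 chaperone genes were matched to at least 1 window. The windows of *Hsph1*, *Hspa1a*, *Hspa1b*, *Dnaja1*, *Hspb1* and *Hspd1* held a match, and those of *Dnajb1* held none. Over all 27025 genes with such windows, 14.5% held a match in at least 1 of them, and 12.8% of all windows did. No test was made of the 6 in 7. Only exact units were searched, so that elements with a changed base in a unit were not counted. The second *Dnajb1* window, at chr8:83608298-83608547, lies inside that gene in GENCODE vM21, which begins at 83608193. A match is a row of letters and was not shown here to be bound. The elements are given below in 30 bases of context, read along the gene's strand, with the alternating units and the bases between them in capitals, to show what was matched in 6 of the genes.
Hsph1: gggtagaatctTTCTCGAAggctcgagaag
Hspa1a and Hspa1b: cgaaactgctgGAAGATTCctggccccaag
Dnaja1: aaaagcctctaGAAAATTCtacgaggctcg
Hspb1, far element: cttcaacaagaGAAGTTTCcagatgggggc
Hspb1, near element: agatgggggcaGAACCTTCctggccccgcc
Hspd1: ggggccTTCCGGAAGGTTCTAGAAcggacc

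The *Hsph1* stretch lies at chr5:149636351-149636380 on the minus strand. The element spans 33 to 26 bases before the first RefSeq start and 54 to 47 bases before the second. It lies just inside the gene in GENCODE vM21, whose 5′ end is at 149636376. The stretches of *Hspa1a* at chr17:34972242-34972271 and *Hspa1b* at chr17:34959324-34959353, both on the minus strand, have the same letters, and in both genes the element spans 104 to 97 bases before the start. The *Dnaja1* stretch lies at chr4:40722333-40722362 on the plus strand, with the element 124 to 117 bases before the first of 3 RefSeq starts. It also lies inside the gene in GENCODE vM21, which begins at 40722150. The *Hspb1* stretches lie at chr5:135887791-135887820 and chr5:135887811-135887840 on the plus strand, with elements 117 to 110 and 97 to 90 bases before the start. The *Hspd1* stretch lies at chr1:55088053-55088082 on the minus strand, before the second of its starts and downstream of the first. It was the longest of these elements, with 4 alternating units over 18 bases, 144 to 127 bases before that start. An element of at least 3 units was found for 0.514% of all genes with windows, and among the chaperone genes described here only for *Hspd1*. In the lists used below, a match of the shortest form was found for 3 of 12 other cytosolic Hsp70, Hsp110 and Hsp40 genes with a window, for 3 of 15 co-chaperones and for 2 of 4 other small heat shock proteins. It was found for 1 of 7 mitochondrial chaperones, for 2 of 12 chaperonin and prefoldin subunits, for 1 of 3 heat shock factors and for 3 of 16 immediate early genes. None of 12 chaperones of the endoplasmic reticulum and none of 6 ubiquitin and oxidative stress targets held one. An element of at least 3 units was also found for 1 of the other cytosolic genes and for *Hspe1*.

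**Figure D1:**
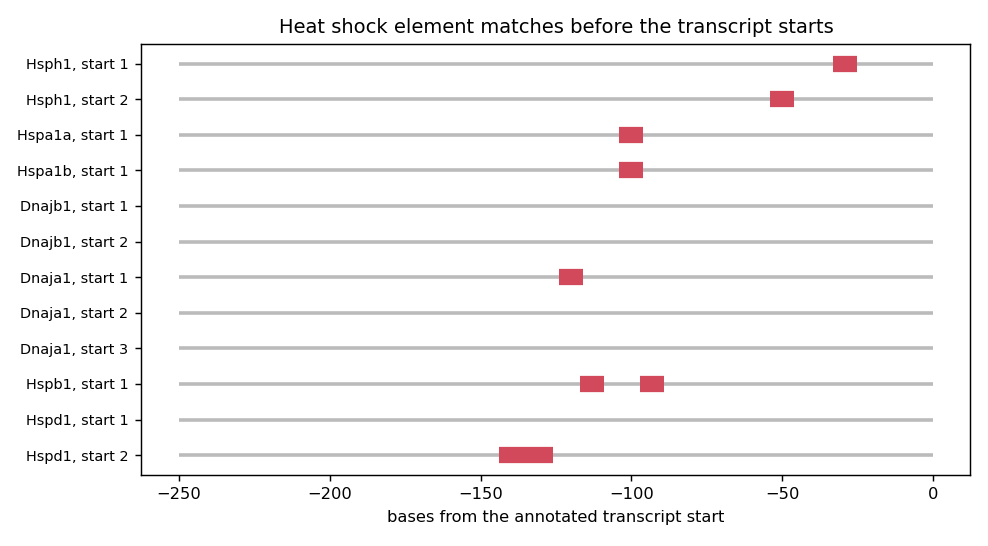
Position of heat shock element matches (red) in the 250 bases before each RefSeq transcript start (grey line per start) of the 7 heat shock chaperone genes with a window. The x axis gives bases from the start. The *Hspd1* match spans 18 bases, each other match spans 8, and the windows of *Dnajb1* hold none.

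The promoters of *Hspa1a* and *Hspa1b* are shown in addition because their likeness bears on how their values can be read. The 250 bases before the start of *Hspa1a*, at chr17:34972157-34972406 on the minus strand, are given with the element in capitals.
Hspa1a: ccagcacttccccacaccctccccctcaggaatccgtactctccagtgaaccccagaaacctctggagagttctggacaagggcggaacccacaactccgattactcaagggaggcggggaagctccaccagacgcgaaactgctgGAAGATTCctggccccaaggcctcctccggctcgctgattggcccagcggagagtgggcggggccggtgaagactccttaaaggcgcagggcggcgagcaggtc
The matching 250 bases of *Hspa1b*, at chr17:34959239-34959488, were 98.8% identical. The 3 differences, from *Hspa1a* to *Hspa1b* and counted from 1 at the far end of the window, were C44T, T47C and T249G.

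*Hsph1* encodes the Hsp110 protein of the cytosol, a nucleotide exchange factor of Hsp70. The gene lies on chromosome 5 from 149614287 to 149636376 in the GENCODE vM21 annotation of mm10. It had 12.9, 10.9 and 14.6 FPKM in replicates 1, 2 and 3 of day 10, and 36.7, 45.1 and 31.7 FPKM in those of day 14. The days did not overlap, and the lowest day 14 sample was 2.18 times the highest day 10 sample, the widest such gap among the 10 genes. Means were 12.8 ± 1.81 and 37.8 ± 6.79 FPKM (SD, n = 3). The log2 fold change of FPKM + 0.1 was 1.55 (standard error 0.19). It was 1.42 without replicate 2 of day 14, whose *Hsph1* value was the highest of all samples. None of the 75-base windows of the longest coding transcript occurred in a transcript of another gene, so that its reads could be placed without ambiguity within this annotation.

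*Hspa1a* and *Hspa1b*, on chromosome 17 from 34969190 to 34972156 and from 34956436 to 34959238, are neighbouring genes for the heat-inducible Hsp70. *Hspa1a* had 58.0, 19.99 and 59.4 FPKM on day 10 and 133.9, 124.7 and 75.4 FPKM on day 14. *Hspa1b* had 87.8, 34.8 and 86.4 FPKM on day 10 and 220.4, 190.5 and 162.4 FPKM on day 14. In both genes replicate 2 of day 10 was far below the other samples, and the days did not overlap. The log2 fold change was 1.40 (standard error 0.42) for *Hspa1a* and 1.56 (standard error 0.34) for *Hspa1b*. These values are uncertain between the copies, since 61.7% of the 75-base windows of *Hspa1a* and 55.8% of those of *Hspa1b* also occurred in other genes, most of them in the partner copy. How reads with several matches were counted is not given in the sources used here. The sum of both genes depends little on how reads were split between them, since their transcripts are of similar length (2967 and 2803 bases). Reads shared with further genes, or left out, could still change it. It was 145.8, 54.8 and 145.8 FPKM on day 10 and 354.3, 315.2 and 237.8 FPKM on day 14. The ratio of *Hspa1b* to *Hspa1a* was 1.57 ± 0.149 on day 10 and 1.78 ± 0.332 on day 14 (SD, n = 3), with overlapping samples.

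*Hspa8* encodes Hsc70, the Hsp70 form made without stress, and lies on chromosome 9 from 40800984 to 40810087. It had 82.85, 71.2 and 92.2 FPKM on day 10 and 105.8, 137.5 and 117 FPKM on day 14. Every day 14 sample was higher, by a smaller step than in the inducible genes, with a log2 fold change of 0.55 (standard error 0.17). Of its 75-base windows, 68.6% also occurred in other genes, foremost in *Gm15459*.

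Within a sample, the sum of *Hspa1a* and *Hspa1b* was 1.76, 0.769 and 1.58 times the level of *Hspa8* on day 10. On day 14 the ratio was 3.35, 2.29 and 2.03. The ratio of *Hsph1* to *Hspa8* was nearly the same in the day 10 samples, at 0.156, 0.154 and 0.158, and was 0.347, 0.328 and 0.271 on day 14. Both ratios were higher on day 14 with no overlap. A common scaling of a library cancels in a ratio, but the genes were chosen with this contrast known, and nothing is read from the lack of overlap. The ratio of *Dnajb1* to *Hspa8* overlapped between the days, with 1.52 ± 0.327 on day 10 and 2.18 ± 0.672 on day 14 (SD, n = 3). Against *Hspa4*, another Hsp110 gene, the days did not overlap, with a ratio of *Hsph1* to *Hspa4* of 0.653 ± 0.148 on day 10 and 1.58 ± 0.577 on day 14 (SD, n = 3).

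*Dnajb1*, on chromosome 8 from 83608193 to 83612653, and *Dnaja1*, on chromosome 4 from 40722150 to 40737149, encode J-domain partners of Hsp70. *Dnajb1* had 128.7, 83.5 and 168.2 FPKM on day 10 and 306.8, 215.7 and 241.4 FPKM on day 14. *Dnaja1*, the lowest of the 10 genes, had 5.34, 6.57 and 7.47 FPKM on day 10 and 10.97, 12 and 13.96 FPKM on day 14. In neither gene did the days overlap. The log2 fold change was 1.05 (standard error 0.27) for *Dnajb1* and 0.93 (standard error 0.20) for *Dnaja1*. As with *Hsph1*, no window of *Dnajb1* was shared with another gene, whereas 26.2% of those of *Dnaja1* were. The ratio of *Dnajb1* to *Dnaja1* was 19.8 ± 6.17 on day 10 and 21.1 ± 5.97 on day 14 (SD, n = 3), with overlapping samples.

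*Hsp90aa1*, on chromosome 12 from 110690605 to 110702728, encodes the inducible Hsp90 form of the cytosol, and *Hsp90ab1*, on chromosome 17 from 45567775 to 45573271, the form made without stress. *Hsp90aa1* had 11.97, 12.99 and 16.56 FPKM on day 10 and 21.7, 25.8 and 23.6 FPKM on day 14, a log2 fold change of 0.78 (standard error 0.17). *Hsp90ab1* had 231.3, 232.7 and 253.7 FPKM on day 10 and 297, 398.5 and 299.7 FPKM on day 14, a log2 fold change of 0.46 (standard error 0.18). Both genes were higher in every day 14 sample, and for *Hsp90ab1* the log2 fold change was 0.32 without replicate 2 of day 14, its highest sample. The ratio of *Hsp90aa1* to *Hsp90ab1* was 0.0576 ± 0.00694 on day 10 and 0.0721 ± 0.00694 on day 14 (SD, n = 3), and its samples overlapped. Windows shared with other genes made up 53.1% for *Hsp90aa1* and 0.736% for *Hsp90ab1*.

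*Hspb1*, on chromosome 5 from 135887919 to 135889563, encodes the small heat shock protein Hsp25, which also acts on actin filaments. It had 50.8, 19.3 and 54.5 FPKM on day 10 and 118.9, 97.7 and 57.2 FPKM on day 14. The lowest day 14 sample was only 1.05 times the highest day 10 sample, and replicate 2 of day 10 was again far below the others. The log2 fold change was 1.21 (standard error 0.42). *Hspd1*, on chromosome 1 from 55077835 to 55088243, encodes mitochondrial Hsp60 and had 11.7, 17.4 and 17.9 FPKM on day 10 and 21.2, 24.9 and 18.5 FPKM on day 14. The gap between its days was the narrowest of the 10 genes, at 1.03 times, with a log2 fold change of 0.47 (standard error 0.21). Shared windows made up 47.3% for *Hspb1* and 33.7% for *Hspd1*.

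**Figure D2:**
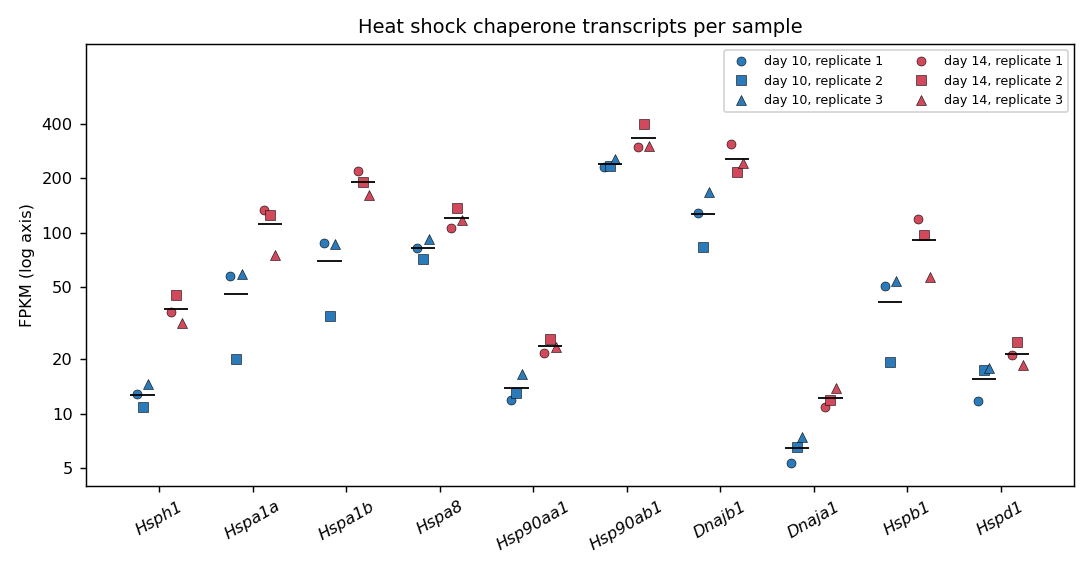
FPKM (log axis) of the 10 heat shock chaperones in each sample, with day 10 in blue, day 14 in red, a marker shape per replicate and a bar at the mean of 3 samples. In each gene the red points lie above the blue ones, by the widest gap in *Hsph1*, and replicate 2 of day 10 (blue square) is low in *Hspa1a*, *Hspa1b*, *Dnajb1* and *Hspb1*.

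All 10 genes had a mean FPKM above 0.1 and were compared. Their lowest single value was that of *Dnaja1* in replicate 1 of day 10, 5.34 FPKM or about 24 estimated reads. This read number uses the median coding transcript length of 916 bases. It would be larger with the longest coding transcript, of 5622 bases. Every gene had a higher mean log2 level on day 14, as did 46.5% of the 19526 genes tested. In all 10 the day 14 samples lay above those of day 10 without overlap, a pattern held by 7.59% of all genes tested and by 13.8% of the 6751 genes with a mean of at least 5 FPKM. The fold change of FPKM + 0.1 was over 2 in *Hspa1b*, *Hsph1*, *Hspa1a*, *Hspb1* and *Dnajb1*, and 5.25% of all genes tested were higher by this much. An adjusted p under 0.05 (limma, Benjamini-Hochberg) was found for none of the 10, and 0.0154% of all genes tested had one, that is 3 genes. Without replicate 2 of day 14, 1 of the 10 had one in limma, as did 76 of the 19674 genes then tested. An unadjusted p under 0.05 with a higher level on day 14 was found for 9 of the 10, and for 5.6% of all genes tested or 12.4% of those with a mean of at least 5 FPKM. Since the genes were chosen with this contrast known, nothing is read from these counts. The median log2 fold change of the 10 was 0.99, beside −0.04 for all genes tested.

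Since the days did not overlap in any of the 10 genes, leaving out a sample could not turn a direction, and it shows only how far a value rests on 1 sample. The log2 fold change ranged from 1.42 to 1.67 for *Hsph1* as each sample was left out in turn. It was 0.88 for *Hspa1a* and 0.73 for *Hspb1* without replicate 2 of day 10, and 0.27 for *Hspd1* without replicate 1 of day 10. In the other genes no sample moved the value by more than 1.5 times. The SD within the days on the log2 scale was 0.23 for *Hsph1*, 0.28 for *Hspd1*, 0.71 for *Hspa1a* and 0.70 for *Hspb1*. Without replicate 2 of day 14, the median log2 fold change of the 10 was 1.04.

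**Figure D3:**
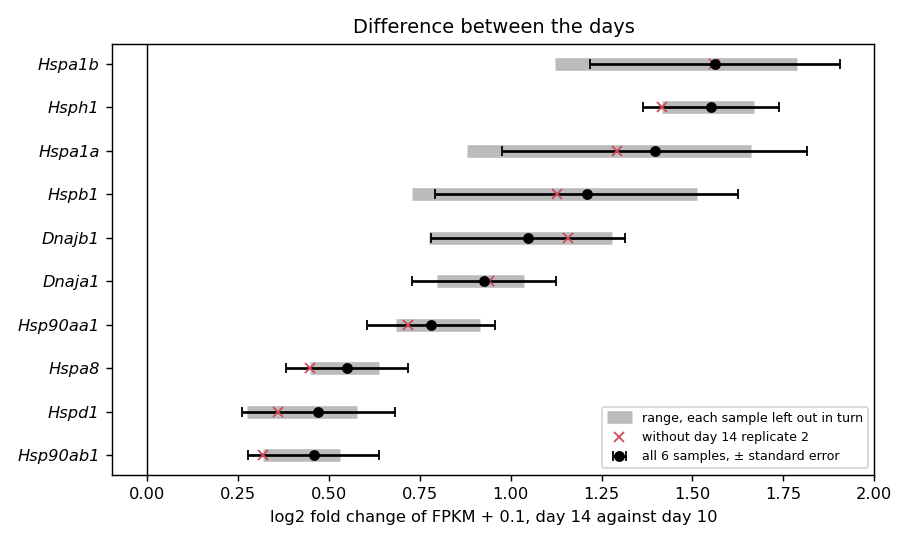
Log2 fold change of FPKM + 0.1 between day 14 and day 10 for the 10 heat shock chaperones, with black points and bars for all 6 samples ± standard error, grey bars for the range when each sample is left out in turn, and red crosses without replicate 2 of day 14. All values lie above 0, from 0.46 in *Hsp90ab1* to 1.56 in *Hspa1b*, and the grey bar of *Hsph1* is shorter than those of *Hspa1a*, *Hspa1b*, *Hspb1* and *Dnajb1*.

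On the FPKM scale, which is per transcript length, *Hsp90ab1* was the highest of the 10 genes on both days, followed by *Dnajb1*. On day 10 the order went on with *Hspa8*, *Hspa1b*, *Hspa1a*, *Hspb1*, *Hspd1*, *Hsp90aa1*, *Hsph1* and *Dnaja1*. The samples of *Dnajb1*, *Hspa8*, *Hspa1b*, *Hspa1a* and *Hspb1* overlapped between neighbours, as did those of *Hspd1*, *Hsp90aa1* and *Hsph1*. On day 14 *Hspa1b* stood above *Hspa8* without overlap, at 191.1 ± 29.0 against 120.1 ± 16.1 FPKM (SD, n = 3), and *Hsph1* was 7 of 10 where it had been 9 of 10 on day 10. *Hsph1* was then above *Hsp90aa1* in every sample, while *Hsp90aa1* and *Hspd1* still overlapped. The order between genes also depends on how reads with several matches were counted, which is not given in the sources used here. Windows shared with other genes ran from 0% in *Hsph1* and *Dnajb1* to 55.8% in *Hspa1b* and 68.6% in *Hspa8*. Together the 10 genes took 0.146%, 0.105% and 0.178% of the FPKM sum on day 10 and 0.275%, 0.261% and 0.226% on day 14.

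The genes differed in how evenly they were measured on day 10. The coefficient of variation was 48.8% for *Hspa1a*, 43.4% for *Hspa1b*, 46.5% for *Hspb1* and 33.4% for *Dnajb1*, against 5.25% to 21.9% for the other 6 genes. Replicate 2 held the lowest value of the day in 6 of the 10 genes, and replicate 3 the highest in 9. On day 14 the highest value was in replicate 2 for 5 genes, in replicate 1 for 4 and in replicate 3 for 1. The days 14, 15 and 16 of the descriptions hold 1 sample each, and no order along them was tested. The pairs with the most alike profiles, measured as the root mean square difference of log2(FPKM + 0.1) over the 6 samples after centring each gene, were *Hspa8* with *Hsp90ab1* (0.106), *Hspa1a* with *Hspb1* (0.123) and *Hsp90aa1* with *Dnaja1* (0.138). The profiles of *Hspa1a* and *Hspd1* were the least alike (0.801).

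Compared in the same way with 11161 genes at a mean of at least 1 FPKM, the profile of *Hsph1* was nearest to those of *Apod* (0.225), *Mgp* (0.238), *Cxcl2* (0.249), *Maob* (0.253) and *Il11* (0.260). *Hspa1b* was the closest of the other heat shock chaperones, at 0.369 and rank 44, followed by *Dnajb1* at rank 67, *Dnaja1* at rank 91 and *Hsp90aa1* at rank 96. *Hspd1* was the farthest, at rank 848. This measure finds genes with a like step between the days, the contrast by which the group was chosen, and not always a like order of samples. On day 14 replicate 3 was the lowest for *Hsph1* and *Maob* and the highest for *Apod*, *Mgp* and *Cxcl2*. For *Il11* replicate 1 was the lowest. *Apod*, which encodes a lipid-binding apolipoprotein, had 30.2, 30.1 and 46.4 FPKM on day 10 and 106.7, 120 and 121.9 FPKM on day 14.

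The other chaperones and stress genes were taken in 8 lists with 85 genes. In limma, 6 of the 85 were higher and 3 lower on day 14 with an unadjusted p under 0.05, where 5.6% and 4.4% of all genes tested were. No gene of the lists had an adjusted p under 0.05 and none was over 2-fold. Their median log2 fold change was 0.11. All day 14 samples lay above those of day 10 in 8 of the 85, and all below in 5. Over all genes tested, 7.59% lay above in this way and 1302 of 19526 below. Most of the 85 had a mean of at least 5 FPKM. Of all genes at that level, 13.8% lay above without overlap, and 12.4% were higher with an unadjusted p under 0.05 in limma.

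Of 18 co-chaperones of Hsp70 and Hsp90, *Bag3*, which links Hsp70 to selective autophagy and is an HSF1 target, was the one higher with an unadjusted p under 0.05. It had 40.7, 34.8 and 49.6 FPKM on day 10 and 70.2, 74.02 and 66.6 FPKM on day 14 (log2 fold change 0.76, standard error 0.17, adjusted p = 0.297 from limma). *Stub1*, which encodes a ubiquitin ligase acting with Hsp70, was lower, at 65.8 ± 1.79 and 48.5 ± 4.32 FPKM (SD, n = 3), with a log2 fold change of −0.44 and an adjusted p of 0.361 in limma. The co-chaperone median was 0.04. Of 12 other cytosolic Hsp70, Hsp110 and Hsp40 genes, the J-domain gene *Dnaja4* was higher (log2 fold change 0.71, adjusted p = 0.443 from limma) and *Dnajc7* lower (−0.38, adjusted p = 0.499 from limma), with a list median of 0.22. On day 14 *Dnaja4* was at 20.9 FPKM in replicate 1, at 20.6 FPKM in replicate 2 and at 10.4 FPKM in replicate 3, the last within the day 10 range of 9.85 to 10.4 FPKM. *Hspa4* had a log2 fold change of 0.32 (standard error 0.24).

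Of 6 other small heat shock proteins, *Hspb8*, the partner of *Bag3*, was higher, from 29.7 ± 5.12 to 42.3 ± 2.99 FPKM (SD, n = 3, log2 fold change 0.52, adjusted p = 0.371 from limma). *Hspb6* was lower (log2 fold change −0.86, adjusted p = 0.449 from limma), with overlapping samples. Of 8 mitochondrial chaperones, *Hspe1* was higher. It encodes Hsp10, the lid of Hsp60, and shares a bidirectional promoter region with *Hspd1*. It had 20.04, 22.4 and 31.6 FPKM on day 10 and 34.4, 35.5 and 34.9 FPKM on day 14 (log2 fold change 0.53, standard error 0.19, adjusted p = 0.411 from limma). The ratio of *Hspd1* to *Hspe1* was 0.643 ± 0.118 and 0.617 ± 0.0852 (SD, n = 3), with overlapping samples. *Hspa9*, which encodes the mitochondrial Hsp70, had a log2 fold change of 0.34 (standard error 0.20), and the list median was 0.01.

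None of 14 subunits of the cytosolic chaperonin and of prefoldin, which fold actin and tubulin, had an unadjusted p under 0.05 in limma. Their median log2 fold change was −0.07, with *Pfdn4* at 0.51 (standard error 0.39) and *Pfdn6* at −0.50 (standard error 0.23) as the ends. None of 14 chaperones of the endoplasmic reticulum passed either, with a median of 0.14. Over all genes tested, 5.6% were higher and 4.4% lower with an unadjusted p under 0.05 in limma. *Hspa5*, the Hsp70 of the endoplasmic reticulum, had 968.2 ± 163 FPKM on day 10 and 1253 ± 281 FPKM on day 14 (SD, n = 3, log2 fold change 0.36, standard error 0.27), and its samples overlapped. *Hsp90b1*, the Hsp90 of that compartment, had a log2 fold change of 0.12 (standard error 0.17). *Dnajb9* had one of 0.36 (standard error 0.24). *Serpinh1*, which encodes the collagen chaperone Hsp47, was the other way round, with 1474, 1289 and 1033 FPKM on day 10 and 814.2, 938.9 and 892.7 FPKM on day 14 (log2 fold change −0.51, standard error 0.24, unadjusted p = 0.0619 from limma). The log2 fold changes ran from −0.50 to 0.51 in the chaperonin and prefoldin list and from −0.51 to 0.36 in that of the endoplasmic reticulum, beside 0.46 to 1.56 in the 10 chaperones.

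Of the heat shock factors, *Hsf1* had 10.9 ± 1.92 and 11.7 ± 1.61 FPKM (SD, n = 3) on day 10 and day 14, a log2 fold change of 0.11 (standard error 0.20). *Hsf2* was near 1 to 2 FPKM (log2 fold change 0.59, standard error 0.38). *Hsbp1*, which encodes a small protein that binds HSF1, had a log2 fold change of 0.20 with no overlap of its samples, and none of the 5 genes of this list had an unadjusted p under 0.05 in limma. These are transcript levels, and the activity of HSF1 was not measured. In the list of 8 ubiquitin and oxidative stress targets, *Sqstm1*, an autophagy receptor, was higher, at 378.9 ± 23.1 and 605.7 ± 32.6 FPKM (SD, n = 3, log2 fold change 0.68, adjusted p = 0.310 from limma). So was *Srxn1*, which encodes sulfiredoxin, with a log2 fold change of 0.87 (adjusted p = 0.319 from limma). In 4 of these 8 genes the day 14 samples were all above those of day 10, against 7.59% of all genes tested and 13.8% of those averaging 5 FPKM or more. The list median was 0.41.

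**Figure D4:**
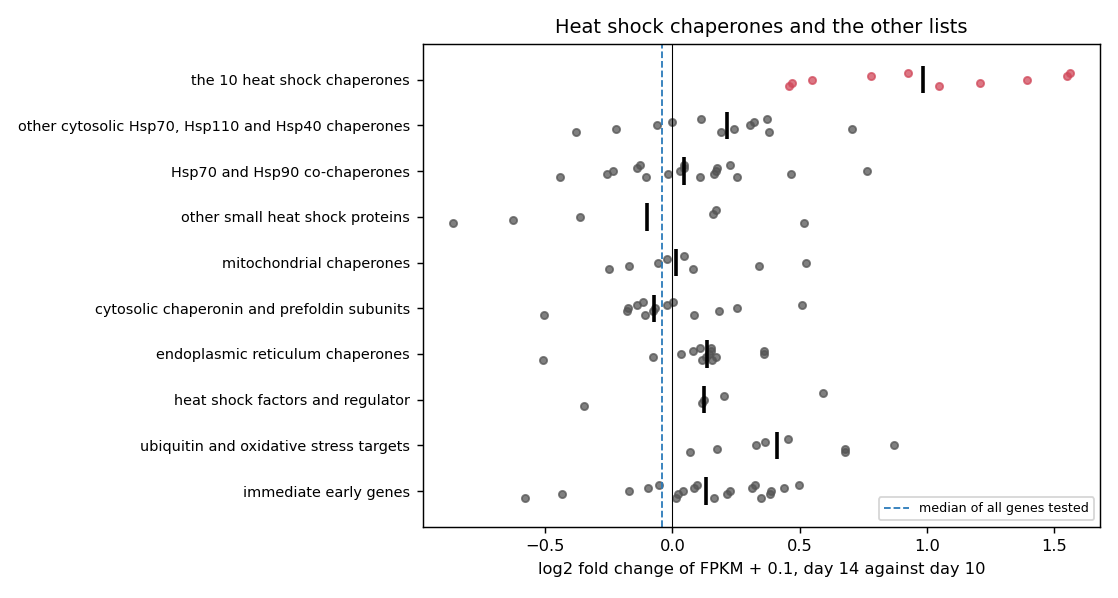
Log2 fold change of FPKM + 0.1 between day 14 and day 10 for each gene (points) of the 10 heat shock chaperones (red) and of 9 other lists (grey), with a black bar at each list's median and a dashed line at the median of all genes tested (−0.04). The 10 chaperones, chosen with this contrast known, lie between 0.46 and 1.56 with a median of 0.99. The medians of the other lists lie between −0.10 and 0.41, and single genes in them reach 0.87, within the range of the 10.

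Immediate early genes, which respond within minutes to cell isolation among other stimuli, were set beside the chaperones because the digestions differed by day. None of 20 had an unadjusted p under 0.05 in limma, where 5.6% of all genes tested were higher and 4.4% lower. The median log2 fold change of the 20 was 0.13. In 1 of them, *Ier3*, the day 14 samples were all above those of day 10, as in 7.59% of all genes tested. It had 297.8 to 384.7 FPKM on day 10 and 401.6 to 504.5 FPKM on day 14. A higher mean log2 level on day 14 was found for 15 of the 20, and for 46.5% of all genes tested. *Fos* had 1596 ± 356 and 1479 ± 204 FPKM (SD, n = 3, log2 fold change −0.10), *Atf3* 281.6 ± 98 and 209.9 ± 72.9 FPKM (SD, n = 3, −0.43), *Jun* 350.3 ± 60.4 and 444.7 ± 70.5 FPKM (SD, n = 3, 0.35) and *Egr1* 671 ± 63.8 and 930 ± 253 FPKM (SD, n = 3, 0.44). The samples of each overlapped between the days. Within day 10 the list median, centred per gene over the 6 samples, was lowest in replicate 2 (−0.312), which was also the lowest for the 10 chaperones (−0.731). The part of these genes or of the digestion in the chaperone values was not tested.

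The centred list median of the 10 chaperones was −0.387, −0.731 and −0.131 in the day 10 samples and 0.526, 0.513 and 0.316 in those of day 14. Replicate 2 of day 14, with 1.54 for the chondrocyte markers where replicates 1 and 3 had −1.54 and −2.73, was at 0.513 for the chaperones, close to replicate 1. For the myeloid markers it was at −1.88, against 1.39 and 1.77. The medians of 7 endothelial markers were higher in each day 14 sample than in each day 10 sample (0.211 to 0.936 against −0.932 to 0.00532), at summed levels of 1.56 to 2.99 FPKM on day 10 and 3.36 to 6.03 FPKM on day 14. *Pecam1*, which marks endothelial cells, was at 0.463 ± 0.194 and 1.00 ± 0.323 FPKM (SD, n = 3). The part of these cell types in the chaperone values was not tested. The 10 OB markers had a median log2 fold change of −1.26, none of them with a higher mean on day 14. Without replicate 2 of day 14 it was −1.93, and the markers with every day 14 sample below those of day 10 went from 1 to 7. Fewer samples separate more easily, and over all genes tested such genes went from 1302 of 19526 to 2599 of 19674.

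**Figure D5:**
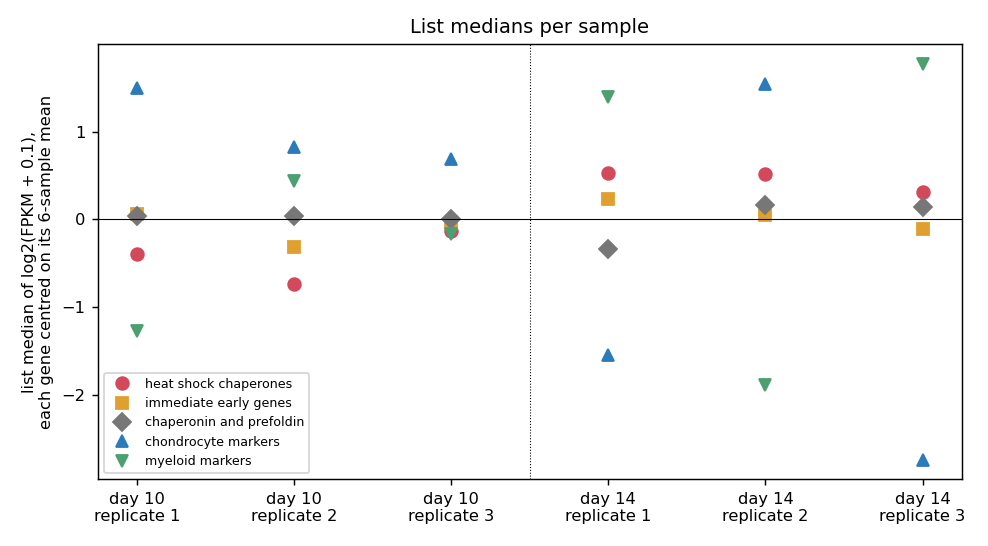
Median over each list of log2(FPKM + 0.1), with every gene centred on its mean over the 6 samples, per sample. The chaperones (red circles) lie below 0 in the day 10 samples and between 0.316 and 0.526 in the day 14 samples, while chondrocyte (blue) and myeloid (green) markers in replicate 2 of day 14 lie apart from replicates 1 and 3.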

How the data were processed

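Single-end reads of 75 bases were aligned by the authors to mm10 with TopHat2 2.0.13, Bowtie2 2.2.3 and SAMtools 0.1.19, and the deposited values are FPKM per gene from Cufflinks 2.2.1. The annotation and the handling of reads with several matches are not given in the sources used here. Genes with a mean FPKM above 0.1 were compared with limma 3.58.1 in R 4.3.3 (mean-variance trend) on log2(FPKM + 0.1), with the day as the only factor and Benjamini-Hochberg adjustment over 19526 genes. Fold changes understate those of low genes. Tested on simulated data, the fit gave back the sizes of changes, but small changes did not pass the adjusted p. In one file 25 symbols had become dates and were restored by row. Depth was estimated from the steps between values up to 0.3 FPKM of 2186 genes with a single transcript, at a fragment length of 220 bases, with 75.7% to 80.4% of them within 0.1 of a whole read. Read numbers per gene use the median coding transcript and are approximate. The replicate numbers are shared by both days without a stated link. Named genes were the 10 chaperones, genes of the other lists with an unadjusted p under 0.05 or otherwise with the largest changes, fixed examples and the 5 profiles nearest to *Hsph1*. Members, lists and alternatives were chosen with earlier results of these data known.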

Additional observations from a re-analysis of the deposited data

How the results depend on the processing

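The log2 fold change of each of the 10 chaperones moved by less than the spread between replicates under 13 alternatives (pseudocount of 1 or 0.01, mean FPKM above 1, no filter, median-of-ratios scaling, quantile normalization, replicate block, and each sample left out in turn). With days that did not overlap, most of these could not have turned a direction, and the sign is no sign of stability. All 10 had a higher mean on day 14 throughout, and their median ran from 0.76 to 1.16. With quantile normalization the value of *Hsp90ab1* was 0.28. That of the immediate early genes ran from 0.01 to 0.21. The number of genes with an adjusted p under 0.05 in limma was 3, and it was 3 to 76 with a sample left out. It was 5 without replicate 2 of day 10, 6 without replicate 3 of day 10 or replicate 1 of day 14, and 76 without replicate 2 of day 14. Among the 85 other chaperone and stress genes, 4 to 12 were higher (12 without replicate 1 of day 14) and 1 to 4 lower with an unadjusted p under 0.05 as samples were left out. Lower genes numbered 1 without replicate 1 or 2 of day 10 or replicate 1 or 3 of day 14. Over all genes tested, the number with an unadjusted p under 0.05 in limma, in either direction, moved as well. It was 1954 of 19526 with all samples. Without replicate 1 of day 10 it was 937 of 19379, and without replicate 1 of day 14 it was 2559 of 18804. Without the mean-variance trend 3 of the 85 were higher and 0 lower, against 6 and 3, and with quantile normalization 6 were lower. Of all 19526 genes tested, 1340 had such a p without the trend and 2333 with quantile normalization, in either direction. The causes were not tested.

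Under a replicate block, 2 genes in limma passed an adjusted p of 0.05, 9 of the 85 genes were higher and 4 lower, and the chaperones' fold changes were the same. Of all 19526 genes tested, 2130 had an unadjusted p under 0.05 in limma under the block, in either direction. Deviations of same-numbered samples correlated at r = 0.058, −0.00584 and 0.0887 across genes, and not every sample correlated best with its own number, so the numbers were not taken to pair the samples. Groups of 3 samples were too small for a search for outlying samples.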
